A study of Homo sapiens with 4 samples.

Results

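Tamoxifen added to romidepsin was examined in Panc1 cells, a line derived from a human pancreatic ductal carcinoma, by setting the array of cells given both drugs against the array of cells given romidepsin. These were 2 of the 4 arrays of the study. The members are all non-control probe sets that the platform annotation assigns to a single gene, 41091 of 54675, which cover 19775 genes. Each gene was read from its brightest probe set, ranked by log2 signal averaged across all 4 arrays, and any signal lower than 66.4, which is the median over every non-control signal, was replaced by that floor on the way to log2 values. Genes above the floor on either array counted as measured, and there were 13726 of them. The words rose and fell are kept for differences of 2-fold or more between these arrays.

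The 4 arrays were of untreated cells, cells given romidepsin, cells given tamoxifen and cells given romidepsin plus tamoxifen, 1 array each. Treatment lasted 24 hours, and no dose is stated in the sources used here. Total RNA of the same cell line, grown in medium with fetal bovine serum, was labelled from 100 ng with a 3′ amplification kit and hybridised to Affymetrix arrays. With 1 array per condition there is no replicate spread, no test between conditions was possible, and every fold below describes these arrays only. The combination and romidepsin groups both carry romidepsin, so what differs between them by label is tamoxifen.

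Romidepsin is a cyclic peptide drug that inhibits histone deacetylases, the enzymes that take acetyl groups off histones and other proteins, and so changes the transcription of many genes. Tamoxifen is a selective estrogen receptor modulator that also binds the microsomal antiestrogen binding site, formed by the cholesterol enzymes EBP and DHCR7, and as a cationic amphiphilic compound it gathers in lysosomes. In pancreatic carcinoma lines such as Panc1, secreted chemokines, the cell cycle programme and mesenchymal traits are much studied as drug readouts.

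The epithelial keratin gene KRT18, at 25361 untreated and 11344 in the combination, the mesenchymal filament gene VIM, at 38695 and 22486, and the ductal factor SOX9, at 6686 and 4537, were bright throughout. KRT19, a ductal keratin, was below the floor on all 4 arrays. Of the markers of other cells, those of leukocytes (PTPRC, CD3E), acinar cells (CPA1) and islets (INS, GCG) were below the floor on all 4 arrays, VWF and PECAM1 of endothelium did not exceed 136, and the fibroblast gene DCN did not exceed 91.6. The collagen gene COL1A1, also a fibroblast marker, lay between 6365 and 9773. The estrogen receptor gene ESR1 was below the floor untreated and with tamoxifen, at 122 with romidepsin and at 196 in the combination. ESR2 was at 85.0, 80.8 and 84.8 on the first 3 arrays and below the floor in the combination.

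In all, 559 genes rose and 312 fell when tamoxifen was added to romidepsin, 4.07% and 2.27% of the 13726 measured. The changes were mostly small. The median size was 1.21 on the log2 scale for rises and 1.19 for falls, 55 rises and 40 falls reached 3-fold, and 6 and 10 reached 4-fold. In 46 rises and 46 falls the lower array was at the floor, so that their folds are lower bounds. A second measured probe set existed for 268 of the genes that rose, moved the same way in 253 and itself reached 2-fold in 117, or 43.7%. Of 93 such genes that fell, 84 had a second probe set that moved the same way and 36, or 38.7%, one that reached 2-fold. The only spread that could be measured is technical: between the 2 brightest probe sets of a gene the log2 difference varied by a median of 0.22 over 5907 genes, with a 90th percentile of 0.69, and over 18 hybridization spike-in probe sets its SD was 0.11.

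The split between rises and falls depended on how the arrays were put on a common scale. Rises were 64.2% of the calls as deposited, 46.4% when each array was centred on its median, 58.6% after quantile normalization and 93.7% when arrays were scaled to the spike-in controls. The median log2 difference of all measured genes was -0.03 as deposited and -0.13, -0.06 and 0.25 under these settings, and list medians below are read against that of all genes. Several controls moved with the comparison. For actin, the ratio of its 3′ to its 5′ control probe set was 1.18 with romidepsin and 1.73 in the combination, and for GAPDH it was 1.03 and 1.07. Spike-in controls in the combination were at 0.809 times their romidepsin level, and the 3′ probe set of 18S ribosomal RNA went from 20965 to 12022. The part of RNA quality and of labelling yield in the differences was not tested.

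The genes with the largest rises had varied roles. DNAI7, which encodes an axonemal protein of motile cilia, was below the floor untreated and with tamoxifen, at 107 with romidepsin and at 486 in the combination, 4.53-fold higher. TTC14 was at 396 untreated, 538 with romidepsin, 882 with tamoxifen and 2349.8 in the combination, 4.37-fold higher. CLGN, a chaperone of the endoplasmic reticulum, was at 109, 479, 425 and 1783 on the same arrays, 3.72-fold higher. In these genes each drug array was above or level with the untreated one and the combination was the highest of all.

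A different order was seen in ESF1, a gene of ribosomal RNA processing, which was at 736 untreated, 526 with romidepsin, 1051 with tamoxifen and 1975 in the combination. Its romidepsin array was the lowest of the 4, and it was 3.76-fold higher in the combination. The stress-induced transcription factor DDIT3, also known as CHOP, was at 633, 796, 1722 and 2930.4, 3.68-fold higher. The mitochondrial carrier gene SLC25A27 and the teneurin gene TENM1 were above the floor only where romidepsin was present, with SLC25A27 at 155 and 594 and TENM1 at 97.9 and 397. The pseudogene GUSBP4 was 3.76-fold higher, ZMAT1 3.70-fold higher and the zinc finger gene ZNF83 3.66-fold higher; GUSBP4 shares sequence with its parent gene, and its signal is uncertain for that reason.

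**Figure D1:**
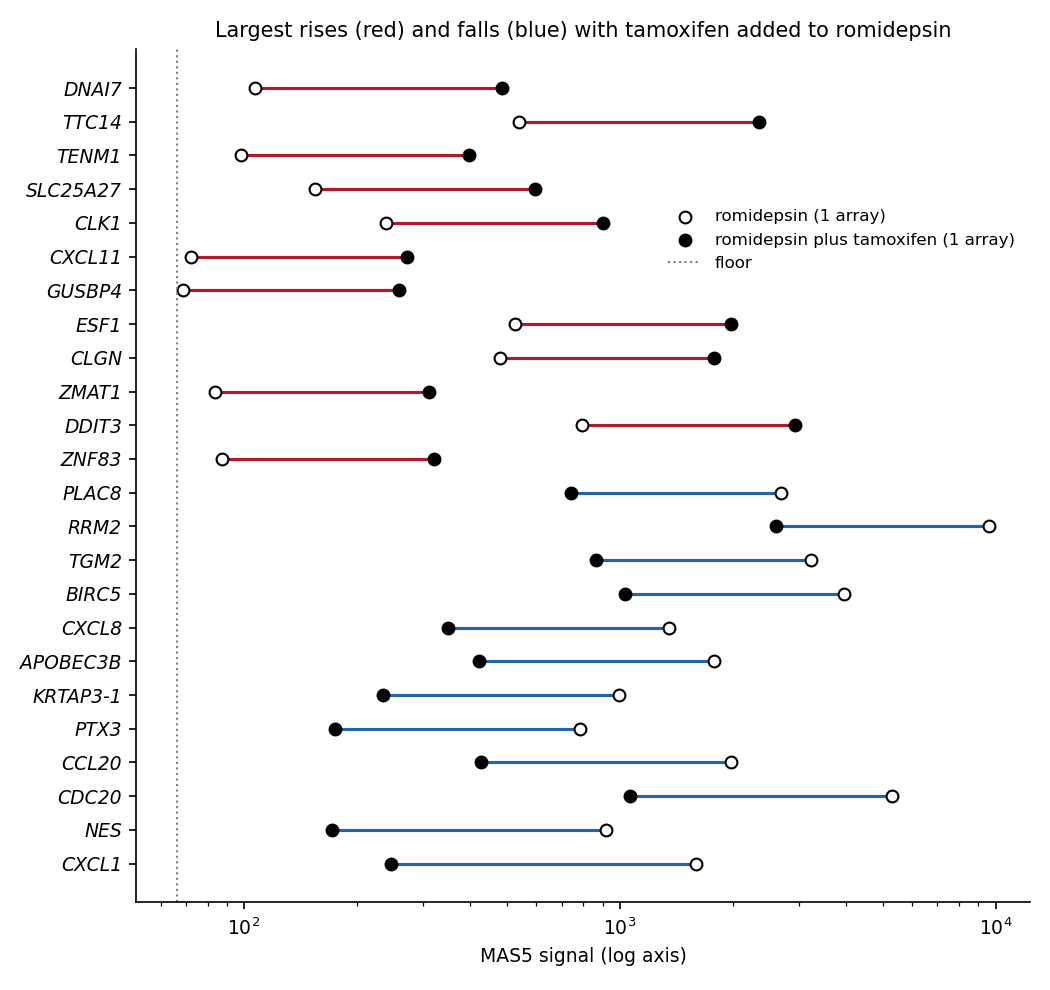
MAS5 signal on a log axis for the 12 largest rises and the 12 largest falls among genes above the floor on both arrays. Open circles are the romidepsin array, filled circles the combination array, 1 array each, and the dotted line is the floor of 66.4; the falls start from brighter signals than most of the rises.

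Among the largest falls, NES, which encodes the intermediate filament nestin, was at 463 untreated, 917 with romidepsin, 253 with tamoxifen and 171 in the combination, 5.35-fold lower. The pentraxin gene PTX3, a secreted pattern recognition protein, was at 191, 783, 127 and 174, 4.49-fold lower. The transglutaminase gene TGM2 was at 888, 3229, 660.5 and 863, 3.74-fold lower. In all of these the romidepsin array was the highest and the combination lay below or near the untreated level.

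KRTAP3-1, a hair keratin-associated protein gene, was below the floor without romidepsin, at 998 with it and at 235 in the combination, 4.25-fold lower. The cytidine deaminase gene APOBEC3B was at 3709 untreated, 1781 with romidepsin, 1902 with tamoxifen and 421 in the combination, 4.23-fold lower. PLAC8, a small cysteine-rich protein gene, was at 14802, 2679, 11336 and 742, 3.61-fold lower. For both, each drug array was below the untreated one and the combination was the lowest.

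Genes with 1 of the 2 arrays at the floor give bounds only. The arginine methyltransferase gene PRMT7 was at 644 untreated, 360.3 with romidepsin and 339 with tamoxifen and below the floor in the combination, at least 5.43-fold lower. The homeobox gene PRRX2 was at least 4.92-fold lower, DEPP1, a FOXO-regulated gene, at least 4.48-fold lower and the collagen processing enhancer PCOLCE at least 3.34-fold lower. In the other direction the defensin gene DEFB124 was at least 4.72-fold higher, the arylamine acetyltransferase NAT2 at least 4.55-fold higher, the autophagy GTPase IRGM at least 4.35-fold higher, the serotonin receptor HTR4 at least 3.76-fold higher and the centrosomal gene CNTRL at least 3.44-fold higher. NAT2 and IRGM were below the floor on the other 3 arrays.

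Chemokines, secreted proteins that attract leukocytes through G protein-coupled receptors, were the list with the lowest median. Of 22 listed genes 11 were measured, 5 fell and 1 rose, with a median log2 difference of -0.64 against -0.03 for all measured genes, and the counts were also 5 and 1 under all 3 other scalings. CXCL1, a ligand of the neutrophil receptor CXCR2, was at 98.0 untreated, 1592 with romidepsin, below the floor with tamoxifen and at 246 in the combination, 6.47-fold lower. CXCL8, or interleukin 8, which binds CXCR1 and CXCR2, was below the floor untreated and with tamoxifen, at 1351 with romidepsin and at 348 in the combination, 3.88-fold lower. CCL20, the ligand of CCR6, was below the floor without romidepsin, at 1972 with it and at 427 in the combination, 4.61-fold lower. In each of these genes romidepsin was the highest array, and the combination stayed above the untreated array.

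CXCL2, a close relative of CXCL1, was at 83.6 untreated, 510.4 with romidepsin, below the floor with tamoxifen and at 150.3 in the combination, 3.40-fold lower. CXCL3, of the same subfamily, was above the floor only with romidepsin, at 189, and in the combination, at 66.8, just over the floor and 2.82-fold lower. All 4 measured members of the neutrophil-attracting CXC group fell, and CXCL5, CXCL6 and PPBP of that group were below the floor on all 4 arrays. CXCL11, an interferon-inducible ligand of CXCR3, went the other way. It was below the floor untreated and with tamoxifen, at 72.2 with romidepsin and at 272 in the combination, 3.77-fold higher, while its relative CXCL10 was at 99.0 in the combination and below the floor elsewhere and CXCL9 was below the floor on all 4. CXCL16, a membrane-bound chemokine, was at 742 and 566, and CCL2, which attracts monocytes, was at 199.9 untreated, 92.2 with romidepsin and below the floor in the other arrays.

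CXCL8, CXCL1, CXCL3 and CXCL2 follow each other on chromosome 4 among the measured protein-coding genes and formed the longest such run called the same way, 4 genes. Genes below the floor, such as CXCL5, CXCL6 and PPBP, were passed over in this order. Their promoter stretches and that of CCL20 are shown because these 5 genes fell together. Each is 80 bases that end 31 bases before the annotated start, from RefSeq (GRCh38.p14), on the gene's strand: chr4:73869283-73869362 (plus) for CXCL1, chr4:74099226-74099305 (minus) for CXCL2, chr4:74038720-74038799 (minus) for CXCL3, chr4:73740459-73740538 (plus) for CXCL8 and chr2:227813732-227813811 (plus) for CCL20. Capitals mark bases that match the kappaB consensus, the binding motif of NF-kappaB, on either strand, as a longer run where matches overlap.
CXCL1: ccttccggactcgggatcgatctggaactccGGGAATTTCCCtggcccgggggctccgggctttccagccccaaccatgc
CXCL2: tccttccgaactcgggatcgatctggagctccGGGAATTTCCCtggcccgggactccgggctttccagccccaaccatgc
CXCL3: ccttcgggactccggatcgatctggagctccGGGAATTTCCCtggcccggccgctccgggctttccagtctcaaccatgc
CXCL8: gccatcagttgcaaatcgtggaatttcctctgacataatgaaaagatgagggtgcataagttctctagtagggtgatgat
CCL20: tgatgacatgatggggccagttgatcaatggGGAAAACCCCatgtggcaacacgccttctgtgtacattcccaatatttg
The match begins 79 bases before the start in CXCL1, CXCL3 and CCL20 and 78 bases before it in CXCL2. In windows of 300 bases, 250 before and 50 after the start, 4 of these 5 promoters held the consensus against 10.8% of all 27305 promoters in the table. The stretches of CXCL1 and CXCL3 were identical at 91.2% of positions. The CXCL8 window held no full match of these letters, but its stretch contains ggaatttcc, bases that also lie within the CXCL1 match. A match describes the sequence and is no measure of binding.

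**Figure D2:**
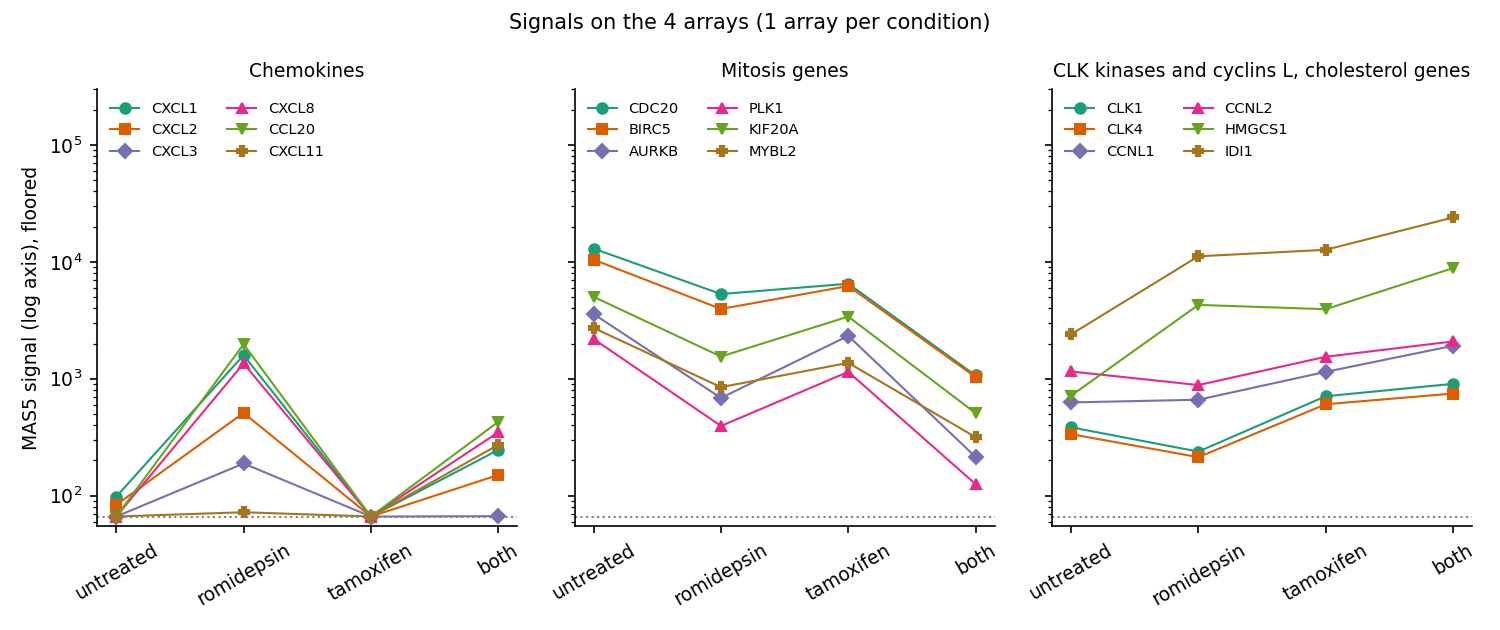
MAS5 signals on the 4 arrays, 1 per condition, on a log axis with values under 66.4 drawn at that floor (dotted). In the left panel 5 chemokines are highest with romidepsin while CXCL11 is highest in the combination, in the middle panel 6 mitosis genes are lowest in the combination, and in the right panel 4 splicing genes and 2 cholesterol genes are highest there.

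The NF-kappaB pathway, which turns cytokine and stress signals into transcription of chemokines and survival genes, had a median of -0.46 on the log2 scale. Of 33 measured genes 4 fell and 1 rose, or 7 and 0 with median centring and 1 and 1 on the spike-in scale. Of the subunits, RELA, RELB, NFKB1 and NFKB2 had log2 differences between -0.65 and -0.46 and were not called, and REL, the c-Rel gene, was 2.09-fold higher by its brightest probe set, although its probe sets did not all move 1 way. Of the inhibitors, NFKBIB was at 2840.1 untreated, 1768 with romidepsin, 1669 with tamoxifen and 829 in the combination, 2.13-fold lower, and NFKBIE (-0.97), TNIP1 (-0.95) and NFKBIA (-0.85) stayed short of 2-fold on the log2 scale. Of 9 measured target genes 3 fell. The survival gene IER3 went from 9973 to 3931, 2.54-fold lower, the complement gene C3 was 2.47-fold lower and the costimulatory receptor TNFRSF9 2.31-fold lower. The adhesion receptor ICAM1, another target, was at 1680.2 with romidepsin and 2246 in the combination.

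Other secreted inflammatory genes did not move as a group. The 18 measured interleukins, growth factors and receptors had 2 falls, 1 rise and a median of 0.04. PTX3, described above, and the proinflammatory cytokine IL32, at 147 with romidepsin and below the floor elsewhere, fell, the latter at least 2.21-fold lower. The shared receptor subunit IL6ST, or gp130, was 2.04-fold higher by its brightest probe set, with its probe sets not all 1 way. IL6 was at 69.7 and 73.1 and IL15 at 498 and 778. None of 26 measured interferon-stimulated genes was called, with log2 differences up to 0.76 for HERC5. As 4.07% of all measured genes rose and 2.27% fell, the absence of calls in a list of that size is not far from background.

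Genes of mitosis, transcribed late in the cell cycle and needed to build the spindle and separate chromosomes, were lower in the combination than with romidepsin. Falls numbered 17 among 78 measured genes and rises 0, and the median log2 difference was -0.48. With median centring there were 25 falls, and on the spike-in scale 10, with 3 rises. In bulk RNA, fewer cells in mitosis and less RNA per cell cannot be told apart. In all 17 genes that fell the combination was the dimmest array, and the untreated array was the brightest in all but ANLN. CDC20, which activates the anaphase-promoting complex, was at 12955 untreated, 5297 with romidepsin, 6489 with tamoxifen and 1066 in the combination, 4.97-fold lower. BIRC5, or survivin, a subunit of the chromosomal passenger complex, was at 10418, 3948, 6205 and 1033, 3.82-fold lower. For both genes the romidepsin and tamoxifen arrays lay between the untreated and the combination array.

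Of 13 mitotic kinases and their activators 4 fell. The passenger kinase AURKB was at 3569 untreated, 685 with romidepsin, 2326 with tamoxifen and 214 in the combination, 3.20-fold lower. PLK1, a kinase of mitotic entry and spindle assembly, was at 2186, 395, 1145 and 125, 3.14-fold lower. TPX2, which activates Aurora A on the spindle, was 2.41-fold lower and the checkpoint kinase BUB1B 2.08-fold lower, while AURKA (-0.61) and BUB1 (-0.84) stayed short of 2-fold on the log2 scale. Of 12 cyclins and CDK1 regulators 3 fell: CKS1B, a CDK-binding subunit, 2.30-fold lower, cyclin B1 (CCNB1) 2.11-fold lower and the phosphatase CDC25C, from 895 to 447. CDK1 itself was at 2565 with romidepsin and 1996 in the combination, not called, and was highest with tamoxifen, at 9185.

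Of 27 genes of spindle, midbody and cytokinesis 5 fell. TACC3, a spindle microtubule protein, was at 3359.7 untreated, 941 with romidepsin, 1649 with tamoxifen and 306 in the combination, 3.07-fold lower. The midzone kinesin KIF20A was 3.05-fold lower, the microtubule depolymerase KIF2C 2.65-fold lower, the anillin gene ANLN 2.10-fold lower and the midzone bundler PRC1 2.08-fold lower. Of the transcriptional activators of these genes, MYBL2 was at 2715, 847, 1367 and 317, 2.68-fold lower. FOXM1, at 2353, 421, 1568 and 236, stayed short of 2-fold between the last compared arrays, and E2F1 was at 279 with romidepsin and 228 in the combination. Beside CDC20, the exit genes UBE2C, the ubiquitin-conjugating enzyme of the anaphase-promoting complex, and ESPL1, or separase, were 2.59-fold and 2.56-fold lower.

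Many late cell cycle promoters carry the cell cycle genes homology region, TTTGAA, the core of a motif bound by the DREAM and MuvB complexes. Stretches of 80 bases that end at the base before the annotated start are shown for 6 called genes of differing roles, from RefSeq (GRCh38.p14), on the gene's strand: chr1:43358901-43358980 (plus) for CDC20, chr16:23678809-23678888 (plus) for PLK1, chr12:53268219-53268298 (plus) for ESPL1, chr1:154974601-154974680 (plus) for CKS1B, chr15:90994536-90994615 (minus) for PRC1 and chr15:40160989-40161068 (plus) for BUB1B. Capitals mark TTTGAA on either strand.
CDC20: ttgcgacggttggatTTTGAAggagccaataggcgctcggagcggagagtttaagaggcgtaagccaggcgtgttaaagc
PLK1: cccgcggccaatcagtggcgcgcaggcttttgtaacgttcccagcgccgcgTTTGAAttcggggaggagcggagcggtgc
ESPL1: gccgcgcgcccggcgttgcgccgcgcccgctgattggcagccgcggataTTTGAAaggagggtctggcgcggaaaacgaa
CKS1B: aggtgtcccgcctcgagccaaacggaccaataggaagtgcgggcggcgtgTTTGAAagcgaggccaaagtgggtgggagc
PRC1: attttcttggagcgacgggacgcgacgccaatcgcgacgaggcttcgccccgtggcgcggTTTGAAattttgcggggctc
BUB1B: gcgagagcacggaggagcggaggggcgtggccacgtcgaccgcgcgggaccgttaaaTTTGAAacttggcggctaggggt
The match lies between 20 and 65 bases before the start. TTTGAA was found in the 300-base windows of 7 of 14 mitosis genes that fell and have a promoter in the table, the other being ANLN, of 30 of 52, or 57.7%, that were measured and not called, and of 15.4% of all promoters.

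Genes of the kinetochore and of chromosome structure went both ways, with 3 rises and 4 falls among 44 measured and a median of -0.14. SPC24, a subunit of the NDC80 complex, was at 735 untreated, 411 with romidepsin, 476 with tamoxifen and 119 in the combination, 3.47-fold lower, and the condensin subunit NCAPH was 3.02-fold lower. The condensin subunit SMC2 and the cohesin subunit SMC3 rose, SMC2 by 2.07-fold and SMC3 from 1019.7 to 2043, and the centromere gene CENPQ was 2.39-fold higher. SMC2 was at 761, 331, 1369.6 and 686, lowest with romidepsin and highest with tamoxifen. When arrays were scaled to spike-in controls this list had 6 rises and 2 falls.

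DNA replication and G1/S genes had a median of -0.36, with 7 falls and 2 rises among 64 measured, 12 and 2 after centring on medians and 2 and 4 on the spike-in scale. RRM2, a ribonucleotide reductase subunit that makes the building blocks of DNA, was at 13763 untreated, 9607 with romidepsin, 8708 with tamoxifen and 2601 in the combination, 3.69-fold lower. The licensing factor CDT1 was 2.73-fold lower, the polymerase alpha subunit POLA2 2.47-fold lower, the histone chaperone ASF1B 2.28-fold lower and the thymidine kinase TK1 2.21-fold lower. Cyclin E2 (CCNE2), which drives entry into S phase, was at 354, 279, 492 and 668, 2.39-fold higher. No gene among 13 CDK inhibitors, D cyclins and their partners was called. CDKN1A, which encodes the inhibitor p21, was at 7755 with romidepsin and 7644 in the combination against 1047 untreated, and the nearest to a call was cyclin D1 (CCND1), at 3179 and 1701. Of 23 repair genes 1 was called: ATM, the kinase that signals DNA double-strand breaks, was 2.19-fold higher, at 271, 213, 624 and 467. The counts of the CDK inhibitor and repair lists lie near the shares over all measured genes, of which 4.07% rose and 2.27% fell.

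The listed regulators of splicing that were called all rose. The CLK kinases phosphorylate SR proteins, which bind exons and recruit the spliceosome. The 58 measured regulators had 9 rises, 0 falls and a median of 0.01, and the rises numbered 8, 8 and 12 under the 3 other scalings. CLK1 was at 385 untreated, 238 with romidepsin, 708 with tamoxifen and 904 in the combination, 3.80-fold higher. CLK4 was at 336, 213, 605 and 747, 3.50-fold higher. Both were lowest with romidepsin and highest in the combination, while CLK2 (0.17) and CLK3 (-0.52) were not called on the log2 scale.

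The cyclins L, partners of CDK11 that sit in nuclear speckles, rose too. CCNL1 was at 627 untreated, 661 with romidepsin, 1145 with tamoxifen and 1912 in the combination, 2.89-fold higher, and CCNL2 was 2.36-fold higher. The SR-related genes RSRP1, LUC7L3 and PNISR were 2.97-fold, 2.64-fold and 2.16-fold higher, and PTBP2, a polypyrimidine tract binding gene of the hnRNP class, 2.13-fold higher. The core SR genes SRSF1 (-0.39) and SRSF3 (-0.33) were not called. By class, 2 of 7 CLK and SRPK kinases rose, with a median of 0.34, and 1 of 17 hnRNP genes, with a median of -0.41. HNRNPUL1, a gene of the hnRNP class that is not in the list, fell from 1117 to 525, 2.13-fold lower. In the class listed as SR proteins and relatives 6 of 34 rose, with a median of 0.09. These were TTC14, described above, the cyclins L CCNL1 and CCNL2, and RSRP1, LUC7L3 and PNISR. In the core spliceosome, 2 of 38 fell and 0 rose, with a median of -0.33: U2AF2, which binds the polypyrimidine tract, was at 11327, 3589, 6540.0 and 1296, 2.77-fold lower, and SF3B4 2.10-fold lower.

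Zinc finger genes, many of which encode KRAB repressors that silence transposable elements and genes through KAP1, had the highest list median. The list of 50 was taken by name with earlier results of these data known, so it is no neutral sample of such genes. Of these, 44 were measured, with 13 rises, 0 falls and a median of 0.57. Rises numbered 11, 12 and 18 under the 3 other scalings. ZNF84 was at 335 untreated, 266 with romidepsin, 774 with tamoxifen and 785 in the combination, 2.95-fold higher. ZNF195 was at 581, 530.1, 1015 and 1484, 2.80-fold higher. ZNF83, at 103, 87.6, 121 and 321, was the largest of them. Most of these genes are dim, and the combination was the highest array in all 3.

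All genes with a symbol of the ZNF type were then counted, a set chosen after values were seen. Of 466 with a probe set 359 were measured, 50 rose, or 13.9%, and 2 fell, with a median of 0.31, and the counts under the 3 other scalings were 43, 45 and 100 rises. On chromosome 19, where these genes cluster, 20 of 155 rose, or 12.9%, and elsewhere 30 of 204, or 14.7%. Other genes on chromosome 19 went the other way, with 5 rises and 49 falls among 826 and a median of -0.31. ZNF605, ZNF320 and ZNF594 were 3.19-fold, 3.11-fold and 3.09-fold higher. The exceptions were ZNF205, at least 2.45-fold lower, and ZNF554, 2.30-fold lower. Zinc finger genes share long stretches of similar sequence, so a probe set named for a single gene can still take signal from relatives.

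Genes of the primary cilium, a sensory projection built by intraflagellar transport, also lay above other genes. There were 7 rises and 1 fall among 39 measured, the median was 0.35, and the rises numbered 7, 7 and 12 under the 3 other scalings. DYNC2LI1, a light chain of the dynein that carries cargo back from the tip, was at 424 untreated, 456 with romidepsin, 855 with tamoxifen and 1390.3 in the combination, 3.05-fold higher. CEP290, of the transition zone, went from 293 with romidepsin to 898, 3.07-fold higher. The dynein heavy chain DYNC2H1 was 2.64-fold higher, AHI1 2.84-fold, IFT80 2.38-fold, the kinesin subunit KIF3A 2.25-fold and IFT74 2.23-fold higher. In all 7 the combination exceeded the untreated array, and in 6 of them it was the highest of the 4. B9D1 was 2.04-fold lower by its brightest probe set, with its probe sets not all 1 way.

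Cholesterol is made from acetyl-CoA through mevalonate, squalene and sterol intermediates, under transcription factors of the SREBP family, and tamoxifen binds enzymes of the last steps. There were 4 rises and 1 fall among 27 measured genes and the median was 0.15, with 2 rises after median centring. HMGCS1, which makes HMG-CoA, was at 717 untreated, 4277 with romidepsin, 3931 with tamoxifen and 8822 in the combination, 2.06-fold higher. IDI1, the isopentenyl diphosphate isomerase, was at 2397, 11136, 12654 and 23914, 2.15-fold higher. SC5D, a sterol desaturase near the end of the pathway, was at 1417, 4684, 6517 and 10803, 2.31-fold higher. For all 3 each drug array lay above the untreated one and the combination above both.

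The sterol transfer gene STARD4 was 2.24-fold higher, and NR1H3, which encodes the liver X receptor alpha, 2.34-fold lower. The other enzymes differed little between the romidepsin and combination arrays. SQLE was at 7695 untreated, 12389 with romidepsin, 17939 with tamoxifen and 16264 in the combination, MSMO1 at 6404, 12343, 19726 and 16179.5, and the SREBP retention gene INSIG1 at 3490.2, 20005, 8239 and 24732. EBP, the tamoxifen-binding sterol isomerase, was at 8473 and 7612. Without romidepsin, 10 of 26 measured members rose with tamoxifen and 2 fell, with a median of 0.85, against 4 and 1 of 27 with it. ACAT2 had 1.52 without and -0.32 with romidepsin, and TM7SF2 1.77 and -0.03, on the log2 scale. The difference between the 2 settings was not tested. The sterol response element TCACNCCAC was found on either strand in 0 of 4 promoters of the genes that rose and in 1.15% of all promoters.

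Lysosome and autophagy genes had a median of 0.14, with 4 rises and 0 falls among 74 measured, 3, 4 and 8 rises under the other scalings. Of all measured genes 4.07% rose and 2.27% fell, so the share of this list that rose was near that of all genes. TP53INP1, described below with the p53 targets, is counted in both lists. GPNMB, a glycoprotein of lysosomes and melanosomes, was at 116 untreated, 323 with romidepsin, 516 with tamoxifen and 1158 in the combination, 3.59-fold higher. The proton pump subunit ATP6V1C1 was at 1305, 2528, 2868 and 6634, 2.62-fold higher, and cathepsin K (CTSK) was 2.06-fold higher. The regulator TFEB had a log2 difference of -0.88 and was not called. Genes outside the list went both ways: the autophagy protease gene ATG4D was 2.14-fold lower and the lysosomal hydrolase gene ARSB 2.01-fold lower, while RB1CC1, given below, rose. Of 31 genes of fatty acid and glycerolipid synthesis GPAM, which starts triglyceride synthesis, was 2.47-fold higher and the lipid droplet gene PLIN3 2.21-fold lower. That list's median, -0.04, lay just below that of all genes and above it after quantile normalization and on the spike-in scale.

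The 21 measured p53 targets had 3 rises, 0 falls and a median of 0.33. TP53INP1, which promotes autophagy and cell death, was below the floor untreated, at 638 with romidepsin, 358 with tamoxifen and 1587 in the combination, 2.49-fold higher. GDF15, a secreted stress cytokine, was at 9477, 4504, 14547 and 9575, 2.13-fold higher, and its combination value was close to the untreated one. The ribonucleotide reductase subunit RRM2B was 2.09-fold higher, in contrast to RRM2 above. When arrays were centred on their medians 1 of these 3 remained called. SESN3, a sestrin gene of the FOXO response, was below the floor untreated, at 2016 with romidepsin, 94.4 with tamoxifen and 4439 in the combination, 2.20-fold higher.

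The integrated stress response lowers translation and induces ATF4, which raises amino acid supply genes and DDIT3. DDIT3 was the only rise among 35 measured genes, and the list had a median of -0.36. ATF4 was at 8051 with romidepsin and 8078 in the combination, TRIB3 at 1147 and 909, ASNS at 16007 and 19816, and the cystine transporter SLC7A11 at 493, 327, 1328 and 652, just short of 2-fold. ALDH18A1, of proline synthesis, was 2.42-fold lower. None of 26 listed genes of the endoplasmic reticulum was called, although CLGN, above, and the co-chaperone DNAJC10, 2.07-fold higher, are not in that list and rose. SEL1L, of protein degradation there, was the listed gene nearest to a call, at 2643 and 5277. Heat shock chaperones had a median of -0.39 with 3 falls among 26 measured: HSPB1 went from 4768 to 2143, 2.22-fold lower, the heat shock factor HSF1 was 2.22-fold lower and HSPA2 2.23-fold lower. On the spike-in scale 0 of these 3 chaperone genes stayed past 2-fold.

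MYC, the growth-promoting transcription factor, was at 5208 untreated, 1668 with romidepsin, 4042 with tamoxifen and 648 in the combination, 2.57-fold lower. Of 33 measured ribosome biogenesis genes GRWD1 and RRP9 fell, 2.32-fold and 2.10-fold lower, both of which were also called lower with tamoxifen alone. No member was called among 29 cytosolic ribosomal proteins, 39 mitochondrial ribosome genes or 27 proteasome genes, and CYC1, a subunit of complex III, 2.12-fold lower, was the only call among 40 oxidative phosphorylation genes. The medians of the ribosomal protein and oxidative phosphorylation lists, -0.11 and -0.13, lay below that of all genes and above it after quantile normalization. Of 30 genes of glycolysis and the hypoxia response 3 fell and 1 rose. The phosphofructokinase PFKP was 2.43-fold lower, GPI 2.04-fold lower and adrenomedullin (ADM) 2.02-fold lower. The glucose transporter SLC2A3 was below the floor without romidepsin, at 1883 with it and at 3944 in the combination, 2.10-fold higher.

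Calls among genes of cell shape, adhesion and growth factor signalling depended on the scaling. Mesenchymal genes had 5 falls and 0 rises among 16 measured and a median of -0.36. CD44, a hyaluronan receptor, was at 20786 untreated, 4218 with romidepsin, 16154 with tamoxifen and 1761 in the combination, 2.39-fold lower. S100A4, a calcium-binding protein of motile cells, was 2.07-fold lower and PDGFB 2.44-fold lower, beside NES and PRRX2 above. Epithelial genes fell as well, 5 of 23 with 0 rises and a median of -0.32. KRT8 was at 9154, 10766, 6125 and 4153, 2.59-fold lower. KRT80 and KRT7, neighbours among the measured genes of chromosome 12, were 2.69-fold and 2.54-fold lower, the desmosomal gene PKP3 2.10-fold lower, and the epithelial factor ELF3 at least 2.34-fold lower. Both lists thus held falls and no rises as deposited. On the spike-in scale 2 mesenchymal and 4 epithelial genes fell, with 1 rise in the former.

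Of 25 YAP target and actin genes 4 fell, with a median of -0.34. The receptor kinase AXL was at 20338 untreated, 7313 with romidepsin, 13041 with tamoxifen and 3166 in the combination, 2.31-fold lower. The smooth muscle calponin CNN1 was 3.17-fold lower, the YAP partner TEAD4 2.10-fold lower and the tropomyosin TPM2 2.03-fold lower. Of 58 matrix and adhesion genes 4 fell: the collagen chaperone SERPINH1, at least 3.06-fold lower, COL5A2, 2.29-fold lower, thrombospondin 1 (THBS1), 2.12-fold lower, and the fibronectin receptor subunit ITGA5, 2.10-fold lower. The urokinase gene PLAU was at 9337, 296, 8626 and 139, 2.12-fold lower, and in the same list of 28 proteases and their inhibitors ADAM8 was at least 2.39-fold higher. Of 12 EGFR family genes and ligands the ligand EREG fell, 3.12-fold lower, at 1160.2, 394, 1273 and 126, and the receptor ERBB3 was 2.07-fold lower by its brightest probe set, with its probe sets not all 1 way. Of the MAP kinase output genes PHLDA1 was 3.13-fold lower, at 14673, 6468, 10459 and 2069. On the spike-in scale the YAP, matrix and EGFR lists had 1 fall and 0 rises each, the MAP kinase output list 2 of each, and the protease list 4 rises and 0 falls. In AXL, PLAU, EREG and PHLDA1 romidepsin was well below the untreated array and the combination lower still.

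The 20 measured pro-apoptotic genes had 3 falls, 0 rises and a median of -0.26, and none was past 2-fold on the spike-in scale. BID, which links death receptors to mitochondria, was 2.15-fold lower, the death receptor TNFRSF10A 2.14-fold lower and the pore-forming BAK1 went from 1616 to 808. None of 9 anti-apoptotic genes was called, MCL1 being at 7489.8 and 7793. Of 25 antigen presentation genes the immunoproteasome subunit PSMB10 was 2.42-fold lower, and the trimming peptidase ERAP1 was 2.03-fold lower by its brightest probe set, with its probe sets not all 1 way; ERAP1 had a log2 difference of 0.0104 when probe sets with a shared-sequence suffix were left out. No histone deacetylase, acetyltransferase or bromodomain gene was called among 34, with HDAC1 at 14306 and 11633, HDAC2 at 10051 and 9881 and HDAC3 at 3645 and 3156. Of 18 genes known to respond to histone deacetylase inhibitors 0 were called, and their median of -0.10 lay below that of all genes and above it after quantile normalization. Over all measured genes 4.07% rose and 2.27% fell, so the absence of calls in such short lists is close to that share. Of 10 measured estrogen-responsive genes 1 fell, IGFBP4, 2.38-fold lower, and 0 rose, with a median of -0.16. On the spike-in scale 0 of them fell. Of 13 genes of tamoxifen metabolism and drug transport CYP4F2 was below the floor without romidepsin, at 1787 with it and 4941 in the combination, 2.77-fold higher, and the export pump ABCC3 was 2.13-fold lower.

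Across the 52 lists, 38 medians lay below that of all measured genes and 14 above, and 46 lists kept their side under all 3 other scalings. At least 1 member was called in 39 lists and none in 13. Over all measured genes 4.07% rose and 2.27% fell, so no call or 1 call in a short list is close to that share. Of 1793 listed genes 155 had no probe set of their own here and were not analysed.

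**Figure D3:**
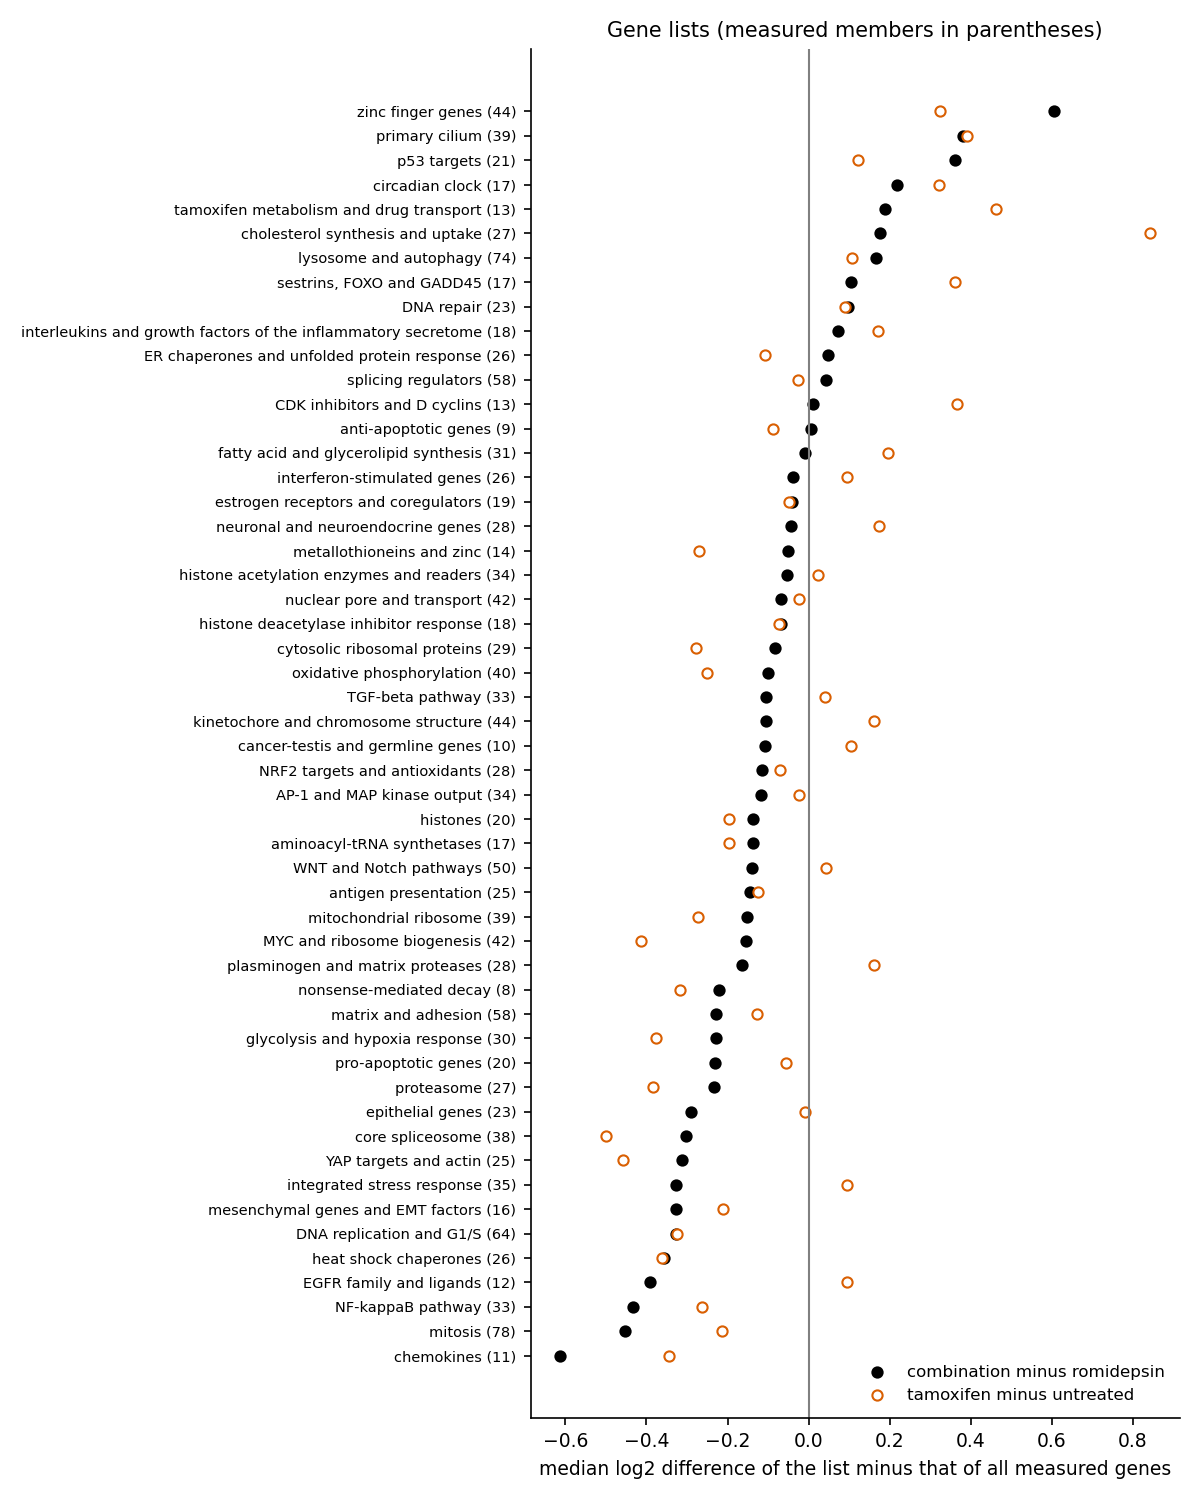
Median log2 difference of each gene list minus that of all measured genes, for the combination against romidepsin (filled) and for tamoxifen against untreated (open), with the number of measured members in parentheses. Chemokine, mitosis and NF-kappaB lists lie lowest and zinc finger, cilium and p53 lists highest for the filled points; 46 of 52 lists keep their side of 0 under the 3 other scalings, while the oxidative phosphorylation, ribosomal protein, histone deacetylase inhibitor response, metallothionein, fatty acid and anti-apoptotic lists change side under at least 1.

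The comparison of tamoxifen with untreated cells shares no array with that of the combination and romidepsin, so the genes called in each could be set side by side. With tamoxifen alone 483 of 13051 measured genes were 2-fold or more higher than untreated, 3.7%, and 140 lower, or 1.07%. Of 478 genes that rose with romidepsin present and were measured in both comparisons, 164, or 34.3%, also rose without it, and 448, or 93.7%, had the same sign, against 50.6% of all genes. Of 296 that fell, 24, or 8.11%, also fell without romidepsin, and 245, or 82.8%, had the same sign, against 49.4%. Seen from the other side, 164 of 477 genes higher with tamoxifen alone, 34.4%, and 24 of 135 lower, 17.8%, were called the same way with romidepsin. The median log2 difference without romidepsin was 0.85 for the genes that rose with it and -0.49 for those that fell.

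Over 12363 genes measured in both, the log2 differences correlated with Pearson's r = 0.607 and Spearman's rho = 0.609. Genes are not independent replicates. The points share probe sets, and both tamoxifen arrays had lower spike-in levels and higher actin 3′ to 5′ ratios than their partner arrays, so the value is a description of these arrays. Pearson's r was 0.323 with the floor at the 25th percentile of signals and 0.737 with it at the 75th. Genes high in both included CLGN, 3.90-fold higher with tamoxifen alone, GPNMB, 4.44-fold, and HMGCS1, 5.48-fold higher. Of the genes that fell most, CDC20 had signals of 12955 untreated and 6489 with tamoxifen alone, just short of a call, NES was 1.83-fold lower and BIRC5 1.68-fold lower. The chemokines CXCL8, CXCL3 and CCL20 were below the floor on both arrays without romidepsin and could not be compared there.

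**Figure D4:**
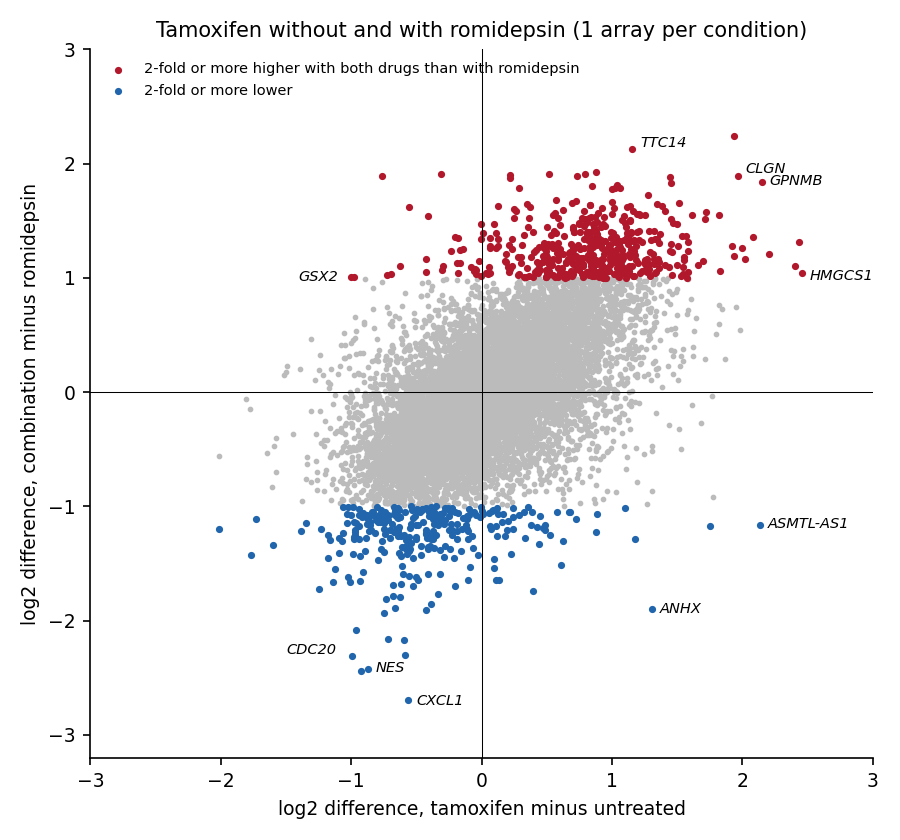
Log2 difference of the combination over romidepsin (vertical) against that of tamoxifen over untreated cells (horizontal) for 12363 genes measured in both, 1 array per condition. Red and blue points are genes 2-fold or more higher and lower in the combination, and most lie to the upper right and lower left; the split of red and blue depends on the scaling, with 46.4% to 93.7% of calls higher.

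The genes that rose were longer than those that fell. The median annotated length was 53.2 kb for 558 genes that rose, 15.9 kb for 312 that fell and 28.3 kb for genes not called. In 5 bins of the measured genes by length, the share that rose went from 1.79% in the shortest, up to 8.63 kb, through 3.14%, 3.65% and 5.58% to 6.20% in the longest, from 89.3 kb. The share that fell went from 3.28% through 3.28%, 2.11% and 1.97% to 0.729%. Median log2 differences ran from -0.16 in the shortest bin to 0.13 in the longest, and from -0.17 to 0.22 for tamoxifen without romidepsin. Among brighter genes the share that rose went from 0.801% through 1.97%, 2.40% and 4.08% to 5.17%. Among dimmer genes it was 2.92%, 4.09%, 4.82%, 7.52% and 6.93%, so that the longest bin was not the highest there. Promoter GC content had a median of 62.3% in genes that rose, 65.7% in those that fell and 65.3% in the others. Length is that of the gene and not of its transcript, and the actin 3′ to 5′ ratio differed between the arrays as given above; the part of RNA quality in this pattern was not tested.

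Medians also differed between chromosomes. Among 23 chromosomes with 100 or more measured genes, chromosome 19 had the lowest median, -0.24, with 25 rises and 50 falls among 981, and chromosome 22 had 1 rise and 13 falls among 332. Chromosome 13 had the highest, 0.18, with 11 rises and 0 falls among 235, and chromosome 4 followed with 0.17. Median gene lengths were 15.5 kb on chromosome 19 and 50.4 kb on chromosome 13.

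**Figure D5:**
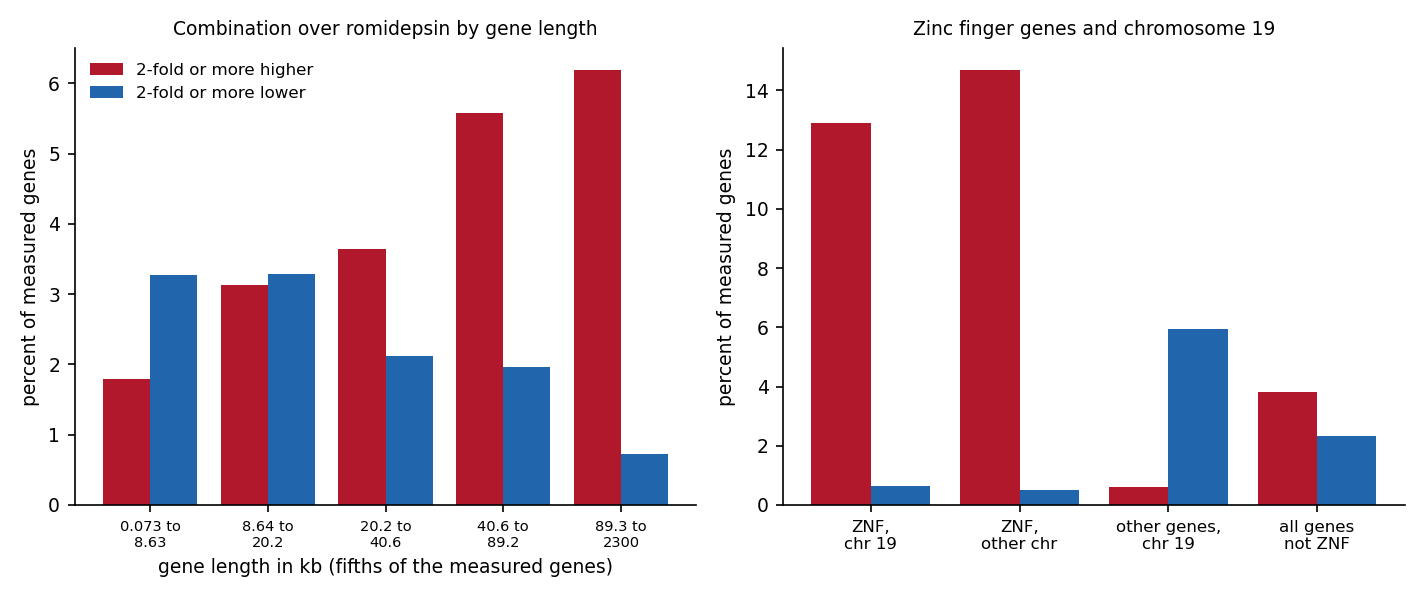
Percent of measured genes 2-fold or more higher (red) or lower (blue) in the combination than with romidepsin, by 5 bins of gene length in kb (left) and for zinc finger genes on and off chromosome 19, other genes on that chromosome and all other genes (right), 1 array per condition. Rises go from 1.79% to 6.20% with length and reach 12.9% and 14.7% in the zinc finger groups; the levels of the bars depend on the scaling of the arrays, and ZNF rises numbered 43 to 100 under the 3 other scalings.

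Beside the CXCL run, 2 runs of 3 genes that are neighbours among the measured protein-coding genes fell and 3 runs of 3 rose. The falls were those of S100A4, S100A3 and S100A2 on chromosome 1, calcium-binding proteins of the S100 family, and of HOXB4, HOXB5 and HOXB6 on chromosome 17, homeobox genes of body patterning. S100A3 was at 632 untreated, 245 with romidepsin, 377 with tamoxifen and 116 in the combination, 2.10-fold lower, and S100A2 was 2.22-fold lower. HOXB5 was 2.15-fold lower, HOXB6 2.50-fold lower and HOXB4 2.10-fold lower. The runs that rose were ZNF891, ZNF10 and ZNF268 on chromosome 12, KLHL28, TOGARAM1 and PRPF39 on chromosome 14, and CGA, ZNF292 and SMIM8 on chromosome 6. CGA, the shared alpha subunit of glycoprotein hormones, was above the floor only with romidepsin, at 191, and in the combination, at 559, 2.92-fold higher. Pairs of neighbours called the same way numbered 40 for rises and 19 for falls.

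The 2-fold line cuts through a continuous range. Just inside it lay RALGAPA1, at 584 with romidepsin and 1169 in the combination, and JMY, at 648 and 1296. Just outside it lay BOD1L1, at 563 and 1125, and the cohesin loader NIPBL, at 793 and 1585. On the lower side BAK1 and CDC25C, given above, were called, and CITED2, at 12785 and 6399.6, and the actin crosslinker ACTN1, at 10499.8 and 5269, were not.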

How the data were processed

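Gene expression was measured on 4 Affymetrix arrays, 1 per condition. The deposited values are MAS5 signals, a linear intensity per probe set, per the submitters' processing notes; a version is not stated in the sources used here. Of 54675 probe sets 62 are controls, 1801 are annotated to several genes and 11721 were unnamed here; the other 41091 were used, and 41037 matched RefSeq by gene, which supplied chromosome, gene length and promoters, with 0 symbols changed. Columns of other samples numbered 0. Signals under the median, 66.4, were raised to it, each gene was read from its brightest probe set, and log2 differences of 2-fold or more were called. No test was possible, and the number of arrays limits the precision. The steps were tested on simulated data, with changes beyond 2-fold put into genes well above the floor. That run did not address calls near 2-fold or near the floor.

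Genes named are the 12 largest rises and falls above the floor on both arrays with all probe sets 1 way, the 5 largest each way with the lower array at the floor, up to 6 called members per gene list, a short set named whatever its values (such as FOXM1, HDAC1 and ESR1), the 5 closest to the 2-fold line on each side and those with opposite calls. Genes named beyond this rule, such as members of a role that were not called, further called members of the mitosis and cilium lists and genes in neighbour runs, were chosen after their values were seen. Members and lists were chosen with earlier results of these data known, and the full zinc finger set, chromosomes and gene length after values were seen. Alternatives were other scalings (array medians, quantiles, spike-in controls), floors, thresholds of 1.5-fold and 3-fold, a pseudocount of 50, the median over probe sets, every probe set on its own and leaving out probe sets with a shared-sequence suffix. Python 3.11.15, numpy 2.4.6, pandas 2.3.3 and matplotlib 3.10.9 were used.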

Additional observations from a re-analysis of the deposited data

Results flagged for a closer look

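A few genes were past 2-fold in opposite directions when tamoxifen was added to untreated cells and when it was added to romidepsin, with 1 array per condition, and the difference between the 2 settings was not tested. In 4 of these 6 genes at least 1 array was below the floor, and a difference that involves such an array is a lower bound on its size. ASMTL-AS1 had a log2 difference of -1.16 with romidepsin present and 2.14 without it, with the untreated and combination arrays below the floor. ANHX, a homeobox gene, had -1.90 and 1.31, with the combination array below the floor. The stress-related gene NDRG2 had -1.17 and 1.75 and the transcription factor TBX3 -1.01 and 1.10, above the floor on all 4 arrays. The vasopressin receptor gene AVPR1B had -1.29 and 1.18, with the untreated and combination arrays below the floor. The homeobox gene GSX2 went the other way, with 1.01 and -1.004 and the romidepsin array below the floor.

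Probe sets that the platform annotation leaves unnamed belong to no comparison above. Of 3404 measured ones 140 were 2-fold or more higher in the combination than with romidepsin and 35 were lower, or 4.11% and 1.03%. Of 25410 measured probe sets of a single gene the shares were 4.30% and 2.19%, so the share that was higher was close to theirs.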

How the results depend on the processing

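With 1 array per condition no array could be left out and no difference has a replicate check. No paired analysis was possible because each condition has 1 array and no result comes from a test. The counts of 559 rises and 312 falls became 1324 and 89 when arrays were scaled to spike-in controls, 1254 and 828 with the floor at the 25th percentile, 266 and 131 with it at the 75th, 1092 and 556 with every probe set counted on its own, 1858 and 1569 at 1.5-fold, and 55 and 40 at 3-fold. Falls numbered 205, and rises 477, with shared-suffix probe sets left out. The other settings stayed within 1.5 times: 393 and 454 centred on medians, 516 and 365 after quantile normalization, 433 and 247 with the pseudocount, 513 and 266 above the floor on both arrays, and 447 and 265 with the median over probe sets. The correlation of 0.607 was 0.323 with the floor at the 25th percentile, 0.737 at the 75th and 0.661 for genes above the floor on both arrays. Of 182 named or listed genes that were called, 162 remained past 2-fold centred on medians, 169 after quantile normalization, 118 on the spike-in scale and 101 of 133 measured with the 75th percentile floor. ERAP1 reversed, to 0.0104 with shared-suffix probe sets left out; the cause was not tested. Of 52 lists, 45 to 52 kept their side of the all-gene median in each setting.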

Other observations

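Several genes outside the lists were called as well; they were picked after their values were seen. They stand for no gene group. The ceramide transporter CERT1 was at 513 untreated, 535 with romidepsin, 1226 with tamoxifen and 1568 in the combination, 2.93-fold higher. The oxysterol-binding protein OSBPL8 was 2.92-fold higher, the endosomal retrieval subunit VPS50 3.45-fold higher and ERGIC2 of the early secretory pathway 3.45-fold higher. The autophagy initiation gene RB1CC1 was 3.13-fold higher, the translesion polymerase POLK 3.43-fold higher and the cohesin acetyltransferase ESCO1 3.56-fold higher.

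Of single genes that fell, TM4SF1, a tetraspan surface protein, was at 28519 untreated, 5108 with romidepsin, 30438 with tamoxifen and 1761 in the combination, 2.90-fold lower. CAVIN1, a coat protein of caveolae, was 3.31-fold lower, the heparan sulfate proteoglycan SDC4 3.02-fold lower and the annexin partner S100A10 2.67-fold lower. The retinoic acid binding protein CRABP2 was 2.73-fold lower and the kisspeptin receptor KISS1R 2.62-fold lower. CDCA3, a cell cycle gene that was not in the mitosis list, was 3.44-fold lower, at 4518, 1253, 2817 and 364.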
